A study of Mus musculus with 6 samples.

Results

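The genes described here are 10 antioxidant targets of NRF2: Nqo1, Gclc, Gclm, Hmox1, Txnrd1, Srxn1, Osgin1, Slc7a11, Cbr3 and Ephx1. They were chosen by name. All 10 were measured, by 14 probe sets annotated to only that gene, out of 17097 genes in the table; where a gene had several, the brightest on average stands for it. The study removed 70% of the liver by partial hepatectomy and measured the remnant 12 h later. The control group was 3 C57Bl/6 wildtype mice and the other group 3 C57Bl/6 DeltaKlf6 mice, in which Klf6, a zinc-finger transcription factor, was deleted in hepatocytes only. Every animal had the operation, 1 array was made per animal, and no array of unoperated liver was analysed here. The sources used here give neither the transgene that drives the deletion nor the ages of the animals. Whole liver also holds cells that keep Klf6, and in whole tissue fewer cells of a type and less RNA per cell cannot be told apart.

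NRF2, encoded by Nfe2l2, is a transcription factor that is held in the cytosol and marked for degradation by KEAP1. Oxidants and electrophiles disable KEAP1, and NRF2 then pairs with a small MAF protein and binds antioxidant response elements in front of genes for glutathione synthesis, thioredoxin recycling and detoxification. In liver this programme protects hepatocytes from reactive metabolites, and loss of Nfe2l2 is known to delay regeneration after partial hepatectomy.

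RefSeq promoter windows (GRCm38.p6) were found for 8 of the 10 genes, 10 windows in all since Txnrd1 has 3 listed starts; Gclc and Hmox1 had no entry. The 250 bases before each start were searched on both strands for the core of the antioxidant response element, TGANNNNGC, which reads GCNNNNTCA on the other strand. It was present for 5 genes (Gclm, Txnrd1, Srxn1, Osgin1 and Slc7a11), in 6 of their windows, whereas 35.2% of all 32851 windows of this length held it. A stricter form, TGACNNNGC, was present for Gclm and Txnrd1 (10.2% of all windows). The AP-1 motif TGANTCA was present for Srxn1 and Osgin1 (6.75% of all windows), and 1 AP-1 match in each overlapped an element core, while the other one in Srxn1, starting 102 bases before the start, did not. The 3 windows printed next belong to genes that stood for different patterns across the arrays. Capitals mark the TGANNNNGC matches, and each window is on the plus strand at chr3:122245307-122245556 (Gclm), chr2:152105274-152105523 (Srxn1) and chr8:119436897-119437146 (Osgin1).
Gclm: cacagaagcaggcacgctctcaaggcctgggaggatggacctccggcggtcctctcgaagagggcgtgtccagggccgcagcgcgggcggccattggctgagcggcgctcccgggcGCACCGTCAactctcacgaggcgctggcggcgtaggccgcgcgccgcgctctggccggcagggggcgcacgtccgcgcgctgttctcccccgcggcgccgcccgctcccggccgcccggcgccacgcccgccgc
Srxn1: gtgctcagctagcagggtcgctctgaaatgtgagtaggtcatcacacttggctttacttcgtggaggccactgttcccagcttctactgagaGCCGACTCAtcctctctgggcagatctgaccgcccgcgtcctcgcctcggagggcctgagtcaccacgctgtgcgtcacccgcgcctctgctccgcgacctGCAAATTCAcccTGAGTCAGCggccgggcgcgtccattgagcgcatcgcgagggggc
Osgin1: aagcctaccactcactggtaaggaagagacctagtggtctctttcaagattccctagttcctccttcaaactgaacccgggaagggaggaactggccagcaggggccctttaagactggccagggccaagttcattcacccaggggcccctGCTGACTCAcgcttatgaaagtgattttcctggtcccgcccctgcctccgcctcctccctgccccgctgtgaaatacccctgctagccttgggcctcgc
The Gclm match starts 134 bases before the start of transcription and the Osgin1 match 99 bases before it. The Srxn1 window holds 3 matches, starting 158, 57 and 45 bases before the start, and the last of them contains an AP-1 motif. A match describes the letters only and was not tested for binding.

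Arrays were compared as deposited log2 values with array medians of 3.30 to 3.45. The hepatocyte genes Alb (12.52 to 13.33) and Ttr (13.21 to 13.29) were high in all 6, as the tissue label has it. Klf6 was not low throughout the DeltaKlf6 group: relative to wildtype, its 3 probe sets stood at 1.82 to 2.13 in the library labelled DeltaKlf6 1, at -0.87 to 0.05 in DeltaKlf6 2 and at -1.75 to -0.32 in DeltaKlf6 3. Their position relative to the deletion was not determined, and any of them that lies outside it would be no check of the knockout. All directions below are therefore between libraries as labelled. The Gapdh control signal of each array, 3' end minus 5' end, grows as RNA is degraded or labelled over a shorter stretch. It was 4.06 to 4.43 in wildtype, 3.47 in the library labelled DeltaKlf6 1, 3.45 in DeltaKlf6 2 and 4.83 in DeltaKlf6 3. The same measure of the actin control placed DeltaKlf6 3 inside the wildtype range: 4.86 to 5.39 in wildtype, then 4.22, 3.998 and 5.05. Other controls set DeltaKlf6 3 apart. The actin signal of the middle minus the 5' end was 1.26 to 1.86 in wildtype and 1.69, 1.79 and 0.13 in DeltaKlf6 1, 2 and 3. The hybridization controls averaged 10.40 to 10.57 in wildtype and 10.19, 10.07 and 11.42 in DeltaKlf6 1, 2 and 3. Pairs of wildtype arrays correlated at r = 0.982 to 0.983 and pairs of DeltaKlf6 arrays at 0.946 to 0.964. The upper quartile of all values was 5.08 in the library labelled DeltaKlf6 3 and 5.50 to 5.63 in the other 5.

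None of the 10 NRF2 targets differed between the groups by the test. By group mean 9 of 10 were higher in DeltaKlf6, where 48.4% of all genes were, and their median log2 difference was 0.46, beside -0.01 for all genes tested. Leaving out the library labelled DeltaKlf6 1 brought that median to 0.10, and leaving out DeltaKlf6 3 to 0.95; it was 0.09 with the Gapdh control as a covariate. The largest difference was that of Cbr3, 0.81 on the log2 scale (1.76-fold), and Slc7a11 was the member with a negative one (-0.10). Adjusted over the whole table by Benjamini-Hochberg, the limma p was 0.992 to 0.997 for the 10 genes. No gene of the whole table passed at an adjusted p of 0.05 (0%). At an unadjusted p under 0.05 there were 0 of the 10 and 631 of all genes (3.69%, of which 1.21% higher and 2.48% lower). The groups overlapped for all 10 targets, while they did not for 9.32% of all genes (3.41% higher and 5.91% lower). All 3 DeltaKlf6 libraries lay above the wildtype mean for 3 targets (Hmox1, Srxn1 and Cbr3) and for 12.3% of all genes.

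**Figure D1:**
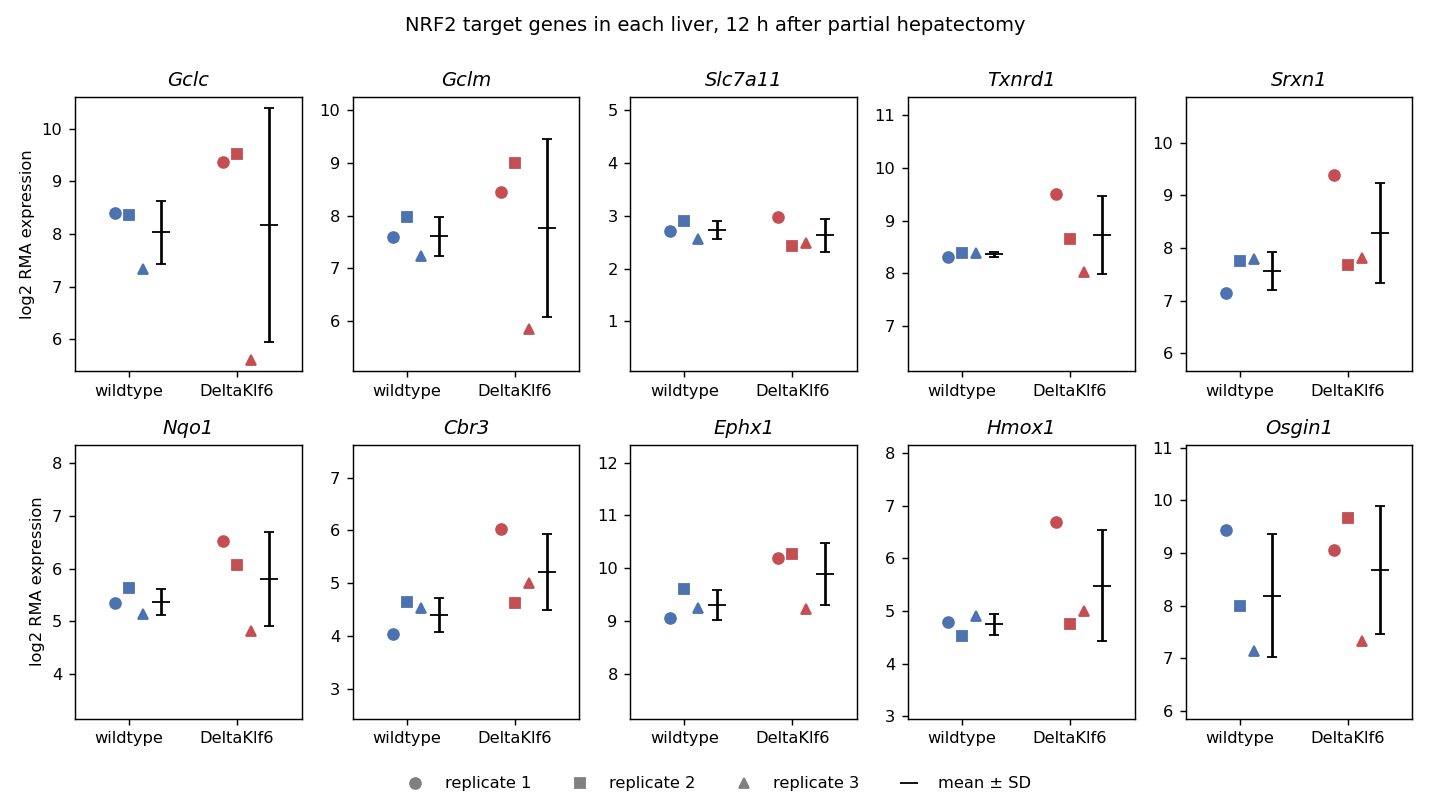
Log2 RMA expression (vertical axis, the same height in log2 units in each panel) of the 10 NRF2 targets in 3 wildtype and 3 DeltaKlf6 livers; symbols are single arrays and bars are mean ± SD (n = 3). The DeltaKlf6 points are spread more widely than the wildtype points for every gene, least so for Osgin1, and the library labelled DeltaKlf6 1 is the highest of the 6 arrays for 6 genes.

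The DeltaKlf6 livers lay far apart in these genes. The SD was larger in DeltaKlf6 than in wildtype for 10 of 10 targets, where it was for 68.1% of all genes. The median SD of the 10 was 0.30 in wildtype and 0.92 in DeltaKlf6, beside 0.24 and 0.35 for all genes. In the library labelled DeltaKlf6 1, 9 of 10 targets lay above every wildtype array (29.0% of all genes) and 0 below every one (30.9%). There 9 of 10 were at least 1.5-fold above the wildtype mean (11.4% of all genes) and 0 as far below it (11.3%). In the library labelled DeltaKlf6 2, 6 of 10 lay above every wildtype array (28.0% of all genes) and 1 below (27.6%), with 5 at least 1.5-fold higher (10.5%) and 0 lower (5.70%). In the library labelled DeltaKlf6 3, 3 of 10 lay above every wildtype array (27.2%) and 5 of 10 below (35.1%), with 1 at least 1.5-fold higher (10.7%) and 3 lower (16.4%). Measured from the wildtype mean, the median of the 10 genes was -0.11 to 0.22 in the wildtype arrays, 1.15 in the library labelled DeltaKlf6 1, 0.50 in DeltaKlf6 2 and -0.30 in DeltaKlf6 3.

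Gclc and Gclm encode the catalytic and the modifier subunit of glutamate-cysteine ligase, the rate-limiting enzyme of glutathione synthesis. They had the widest range over the 6 arrays of the 10 genes and were high in a pair of DeltaKlf6 libraries and low in the other. Gclc was at 8.40, 8.36 and 7.34 in wildtype 1, 2 and 3 and at 9.38, 9.52 and 5.61 in the libraries labelled DeltaKlf6 1, 2 and 3. Gclm was at 7.60, 7.98 and 7.24 in wildtype and at 8.45, 9.0 and 5.85 in DeltaKlf6. For both genes the libraries labelled DeltaKlf6 1 and 2 lay above every wildtype array and DeltaKlf6 3 below every one, and the group means lay close together. The log2 difference was 0.13 for Gclc (SE 0.96, 95% interval -2.08 to 2.35) and 0.16 for Gclm (SE 0.73, 95% interval -1.53 to 1.85; limma adjusted p = 0.997 for each). Without DeltaKlf6 3 the differences were 1.41 and 1.12, and without DeltaKlf6 1 they were -0.47 and -0.18.

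The order of the arrays for Gclm, from highest to lowest, was exactly that of the Gapdh control from the smallest to the largest 3' excess, which holds for 93 of 17097 genes (0.544%). For Gclc the order differed only in that wildtype 1 and 2 changed places. The Spearman correlation with the Gapdh control was also negative for Nqo1 (-0.94), Txnrd1 (-0.89), Ephx1 (-0.83) and Osgin1 (-0.77). It was weak for Slc7a11 and Cbr3 (-0.14 each), Srxn1 (0.20) and Hmox1 (0.31). The actin control, 3' minus 5', ranked the arrays otherwise, with wildtype 1 highest (5.39) and wildtype 3 the lowest wildtype array (4.86). With the Gapdh control as a covariate, an alternative chosen after seeing the data, the difference was -0.79 for Gclc (SE 0.25) and -0.54 for Gclm (SE 0.22), opposite to the values without it (limma adjusted p = 0.418 and 0.501). Whether RNA integrity sets these levels was not tested.

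**Figure D2:**
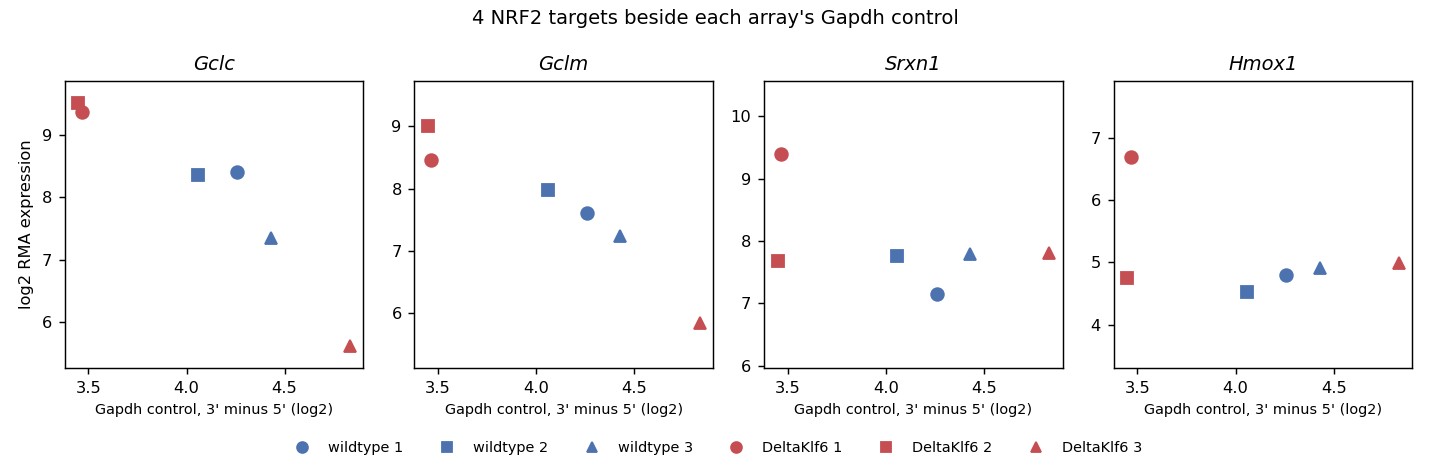
Log2 RMA expression (vertical axis) of Gclc, Gclm, Srxn1 and Hmox1 against the Gapdh control of the same array, 3' minus 5' signal on the log2 scale (horizontal axis); each point is 1 array. Gclc and Gclm fall from the arrays near 3.45 to the array at 4.83, while Srxn1 and Hmox1 are high in the library labelled DeltaKlf6 1 and close together in the other 5 arrays.

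Slc7a11 encodes the light chain of the cystine-glutamate exchanger, which brings in the cysteine for glutathione. Its probe set read 2.72, 2.90 and 2.56 in wildtype and 2.98, 2.43 and 2.48 in DeltaKlf6, below the median of its array in every case; the files give no detection calls. The library labelled DeltaKlf6 1 was the highest of the 6 arrays. The group difference of -0.10 (SE 0.24, limma adjusted p = 0.995) had the opposite sign in the other Slc7a11 probe set (0.19, SE 0.19), where the groups did not overlap (limma adjusted p = 0.992). That probe set was also below the median of every array, at 2.20, 2.27 and 2.29 in wildtype and 2.63, 2.33 and 2.36 in DeltaKlf6.

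Txnrd1 and Srxn1 serve the thioredoxin arm: thioredoxin reductase 1 recycles cytosolic thioredoxin, and sulfiredoxin repairs over-oxidised peroxiredoxins. Txnrd1 was at 8.31, 8.40 and 8.39 in wildtype, a range of 0.08, and at 9.51, 8.66 and 8.02 in the libraries labelled DeltaKlf6 1, 2 and 3. The 3 DeltaKlf6 libraries all lay outside this narrow wildtype range, 2 above and 1 below it. The difference in means was 0.36 (SE 0.36, 95% interval -0.47 to 1.195, limma adjusted p = 0.992) and without DeltaKlf6 1 it was -0.03.

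Srxn1 was at 7.14, 7.76 and 7.78 in wildtype and at 9.39, 7.68 and 7.81 in DeltaKlf6. The library labelled DeltaKlf6 1 stood 1.82 above the wildtype mean, DeltaKlf6 2 lay within the wildtype range and DeltaKlf6 3 just above it. All 4 Srxn1 probe sets placed the library labelled DeltaKlf6 1 above every wildtype array, by 1.399 to 1.82 over the wildtype mean. They differed on the other libraries, which stood at -0.46 to 0.53 in DeltaKlf6 2 and at 0.14 to 1.03 in DeltaKlf6 3. The group difference of Srxn1 was 0.73 (SE 0.46, limma adjusted p = 0.992), ranged from 0.36 to 0.99 over the probe sets and was 0.18 without DeltaKlf6 1. In its dimmest probe set (3.40, 3.61 and 3.37 in wildtype, 4.86, 3.99 and 4.49 in DeltaKlf6) the groups did not overlap, with a difference of 0.99 (SE 0.26, limma adjusted p = 0.992). The probe set used here is of the type that can be shared between transcripts.

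**Figure D3:**
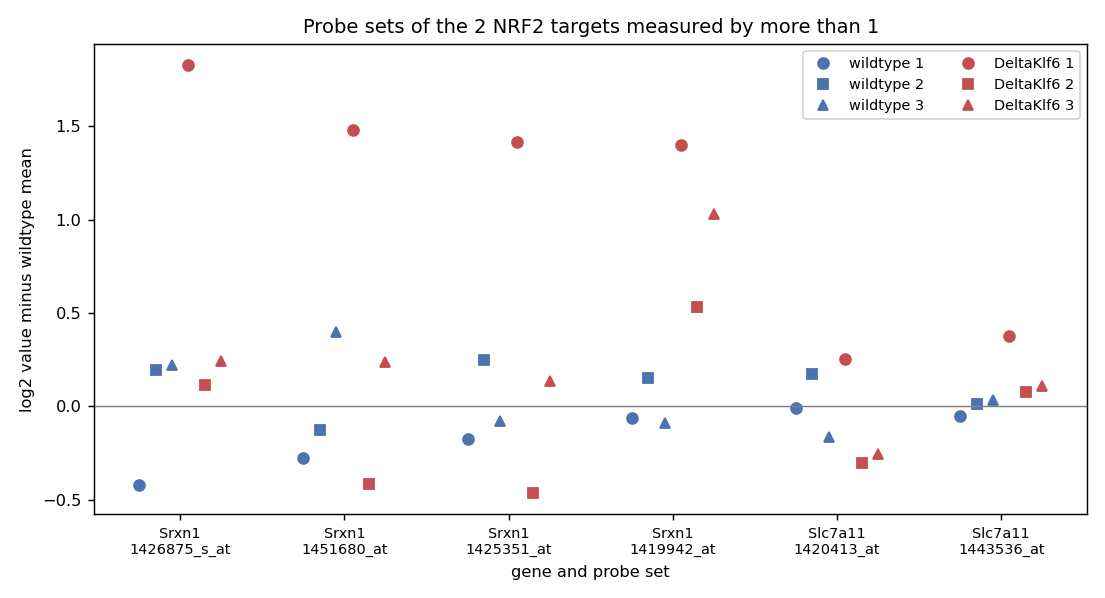
Log2 value minus the wildtype mean (vertical axis) for each probe set of Srxn1 and Slc7a11, the 2 targets with more than 1; each point is 1 array. All 4 Srxn1 probe sets place the library labelled DeltaKlf6 1 at 1.399 to 1.82, and the Slc7a11 points all lie between -0.30 and 0.38.

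Nqo1, Cbr3 and Ephx1 encode detoxifying enzymes: a quinone reductase, a carbonyl reductase and the microsomal epoxide hydrolase. All 3 had a higher mean in DeltaKlf6 and none passed the test. Nqo1, the most widely used NRF2 reporter, was at 5.36, 5.63 and 5.14 in wildtype and at 6.53, 6.08 and 4.82 in DeltaKlf6. Its order over the arrays was close to that of Gclm, with DeltaKlf6 1 and 2 above and DeltaKlf6 3 below every wildtype array (difference 0.43, SE 0.42, limma adjusted p = 0.992). Without DeltaKlf6 1 it was 0.07 and with the Gapdh covariate 0.07.

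Cbr3 was at 4.04, 4.64 and 4.53 in wildtype and at 6.02, 4.63 and 4.997 in the libraries labelled DeltaKlf6 1, 2 and 3. DeltaKlf6 2 lay just inside the top of the wildtype range, and the other DeltaKlf6 libraries above it. Its difference of 0.81 (SE 0.37, 95% interval -0.05 to 1.68) was the largest of the 10 and had the smallest unadjusted p (0.062, rank 801 of 17097; limma adjusted p = 0.992). Without DeltaKlf6 1 it was 0.41.

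Ephx1, which is also a target of the xenobiotic receptor CAR, was at 9.05, 9.61 and 9.25 in wildtype and at 10.18, 10.27 and 9.22 in DeltaKlf6. The libraries labelled DeltaKlf6 1 and 2 lay above every wildtype array, and DeltaKlf6 3 lay within the wildtype range. The difference was 0.59 (SE 0.33, 95% interval -0.16 to 1.34, limma adjusted p = 0.992). Without DeltaKlf6 3 it was 0.92, and with the Gapdh covariate 0.34. Of 15 measured targets and regulators of CAR and PXR 7 were higher by group mean (median difference -0.09), and 0 passed. The CAR target Cyp2b10 differed by 0.82 (SE 0.59) and Nr1i3, which encodes CAR, by -1.10 (SE 0.85), and neither passed. For both, the library labelled DeltaKlf6 1 lay farthest from wildtype: Cyp2b10 was at 6.00, 5.16 and 6.47 in wildtype and at 7.94, 5.56 and 6.58 in DeltaKlf6, and Nr1i3 at 7.66, 8.49 and 8.39 and at 4.82, 8.52 and 7.89. Sult1d1 differed by 0.38 and Cyp3a11 by -0.19.

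Hmox1 encodes heme oxygenase 1, which breaks down heme and is active in Kupffer cells as well as in stressed hepatocytes. It was at 4.79, 4.52 and 4.91 in wildtype and at 6.69, 4.75 and 4.998 in DeltaKlf6. The library labelled DeltaKlf6 1 stood 1.95 above the wildtype mean, the largest single departure of any target upward, and the others 0.00 and 0.26 from it. The difference was 0.74 (SE 0.48, 95% interval -0.37 to 1.85, limma adjusted p = 0.992) and fell to 0.13 without DeltaKlf6 1. Of 12 other genes of heme handling 7 were higher and 5 lower (median 0.03). Among these the hemoglobin scavenger receptor Cd163 (-1.17, SE 0.23) and the heme synthesis enzyme Cpox (-1.03, SE 0.41) had groups that did not overlap but did not pass. Measured from its wildtype mean, Cpox stood at -2.07 in the library labelled DeltaKlf6 1, at -0.48 in DeltaKlf6 2 and at -0.55 in DeltaKlf6 3. The iron exporter Slc40a1 differed by -0.38 and the constitutive heme oxygenase Hmox2 by 0.17. Kupffer cell and macrophage markers had a mean level of 7.28 to 7.57 in wildtype and of 7.41, 7.99 and 7.27 in the libraries labelled DeltaKlf6 1, 2 and 3. Their part in the Hmox1 values was not tested.

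Osgin1 encodes an oxidative stress-induced growth inhibitor. It varied as much between wildtype livers as between DeltaKlf6 livers: 9.44, 7.98 and 7.13 in wildtype and 9.06, 9.66 and 7.33 in DeltaKlf6. The difference was 0.49 (SE 0.72, 95% interval -1.16 to 2.15, limma adjusted p = 0.992), and without wildtype 3 it was -0.03.

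**Figure D4:**
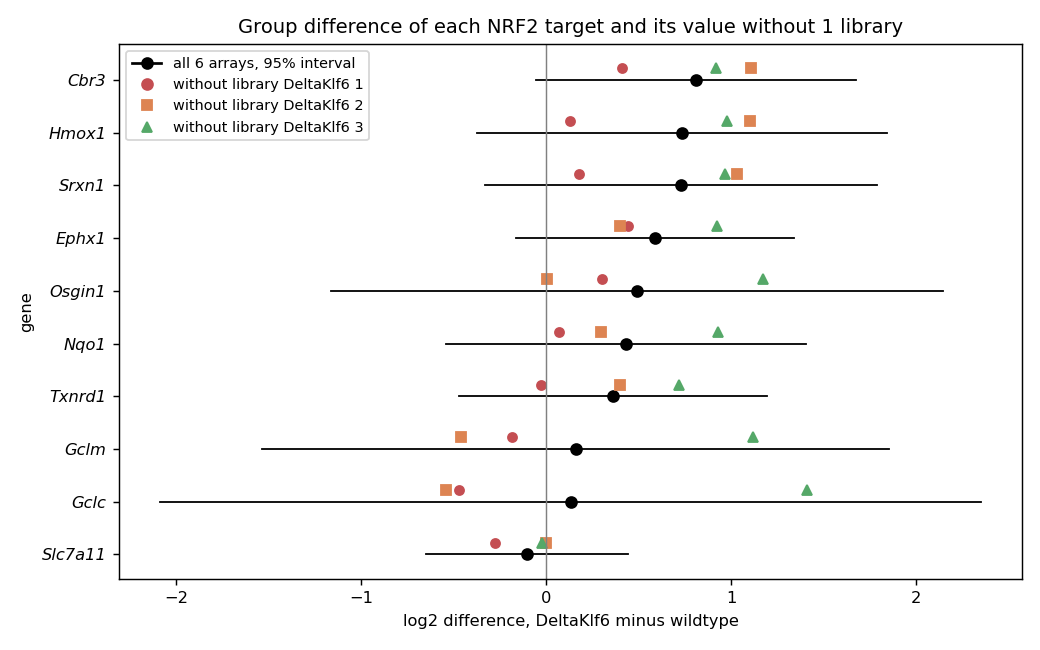
Log2 difference between DeltaKlf6 and wildtype (horizontal axis) of each NRF2 target (vertical axis). Black points and lines are the limma estimate over 6 arrays and its 95% interval, and coloured symbols the estimate with 1 DeltaKlf6 library left out. All 10 intervals include 0, and leaving out DeltaKlf6 1 lowers the estimate for every target, while leaving out DeltaKlf6 3 raises it for every target.

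Of 11 measured regulators and partners of NRF2, 4 were higher and 7 lower by group mean (median -0.24), and 0 passed. Nfe2l2 was at 7.82, 8.08 and 7.41 in wildtype and at 7.91, 8.72 and 7.65 in the libraries labelled DeltaKlf6 1, 2 and 3 (difference 0.33, SE 0.33), with only DeltaKlf6 2 above the wildtype range. Bach1, a repressor that competes for the same elements, differed by -0.15 (SE 0.37), and the small MAF genes Maff, Mafg and Mafk by 0.53, -0.29 and 0.25. Nfe2l1, a relative of NRF2 that controls proteasome genes, was at 8.27, 8.14 and 8.40 in wildtype and at 7.14, 7.71 and 8.01 in DeltaKlf6; the groups did not overlap and the difference of -0.65 (SE 0.27) did not pass (limma adjusted p = 0.992). The others named by the rule were Bach2 (-0.50) and Rbx1 (-0.34), a subunit of the ubiquitin ligase that works with KEAP1. Keap1 was not analysed here.

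Other NRF2 targets, a list of 33 measured genes that share no member with the 10, also had their highest median in the library labelled DeltaKlf6 1 and their lowest in DeltaKlf6 3. By group mean 24 of 33 were higher (72.7%, beside 48.4% of all genes), with a median difference of 0.14, and 0 passed. Their median stood at -0.11 to 0.20 in wildtype, at 0.46 in the library labelled DeltaKlf6 1, at 0.34 in DeltaKlf6 2 and at -0.22 in DeltaKlf6 3. Being highest in DeltaKlf6 1 and lowest in DeltaKlf6 3 was not particular to NRF2 targets. It also held for the medians of hepatocyte markers (0.18 and -0.16), CAR and PXR genes (0.40 and -0.22) and NRF2 regulators (0.14 and -0.26). Kupffer cell and macrophage markers were instead highest in DeltaKlf6 2 (0.68). In the library labelled DeltaKlf6 1, 22 of 33 other NRF2 targets lay above every wildtype array (29.0% of all genes) and 4 below every one (30.9%). In the library labelled DeltaKlf6 2, 20 of 33 lay above (28.0%) and 5 below (27.6%). In the library labelled DeltaKlf6 3, 5 of 33 lay above (27.2%) and 14 below (35.1%).

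Of the 33, 3 had groups that did not overlap with DeltaKlf6 higher (3.41% of all genes) and 1 with it lower (5.91%). These were Akr1b8, Ptgr1 and Gstp1 (0.14), and Idh1 (-0.28); the last pair was named after its values were seen. Akr1b8, an aldo-keto reductase, had groups that did not overlap, at 5.04, 5.20 and 4.70 in wildtype and 6.13, 5.45 and 5.55 in DeltaKlf6 (0.73, SE 0.26, unadjusted p = 0.0232, limma adjusted p = 0.992). Ptgr1, a prostaglandin reductase, had them apart as well (0.97, SE 0.42), with 1 wildtype array, at 3.85, far below the others at 5.32 and 5.42. The glutathione transferases Gstm3 (0.72, SE 0.36) and Gstm2 (0.59, SE 0.36) overlapped; these genes belong to a family of near-identical sequences, which probe sets may not separate. Without DeltaKlf6 1 the list median was 0.06, and with the Gapdh covariate it was 0.01.

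Of 22 antioxidant enzymes outside the NRF2 lists 11 were higher and 11 lower (median -0.02), and 0 passed. Their median was 0.10 in the library labelled DeltaKlf6 1, -0.03 in DeltaKlf6 2 and -0.07 in DeltaKlf6 3. In the library labelled DeltaKlf6 1, 10 of 22 lay above every wildtype array (29.0% of all genes) and 1 below every one (30.9%). These counts were 7 (28.0%) and 9 (27.6%) in DeltaKlf6 2, and 2 (27.2%) and 8 (35.1%) in DeltaKlf6 3. Catalase (Cat, 0.01), the superoxide dismutases Sod1 (0.25) and Sod2 (-0.05) and the glutathione peroxidases Gpx1 (0.05) and Gpx4 (-0.06) were chosen after their values were seen. By the naming rule Txn2 (0.28), the mitochondrial thioredoxin, and the repair and peroxidase genes Msra (0.37) and Prdx4 (0.45) were higher and the glutaredoxin Glrx2 (-0.21) lower in group mean. None of these passed the test.

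Targets of ATF4, the amino acid and stress factor that also acts on Slc7a11, were listed together with Atf4 itself. This list had a median of 1.02 above wildtype in the library labelled DeltaKlf6 1, with 12 of 14 above every wildtype array (29.0% of all genes). The median was -0.12 and -0.08 in DeltaKlf6 2 and 3. Atf3, itself a stress-induced transcription factor, was at 4.999, 4.55 and 4.48 in wildtype and at 7.15, 4.72 and 4.67 in DeltaKlf6 (difference 0.84, SE 0.62). By group mean 9 of 14 were higher (median 0.33); Slc7a5 differed by 0.56, Phgdh by 0.40 and Trib3 by -0.52, and 0 passed. Of the 10 NRF2 targets, Nqo1, Hmox1, Txnrd1, Srxn1, Slc7a11 and Cbr3 also had their highest value in the library labelled DeltaKlf6 1. Gclc, Gclm, Osgin1 and Ephx1 were highest in DeltaKlf6 2. Gclc and Gclm lay above every wildtype array in DeltaKlf6 1 too, at 1.34 and 0.85 over the wildtype mean.

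**Figure D5:**
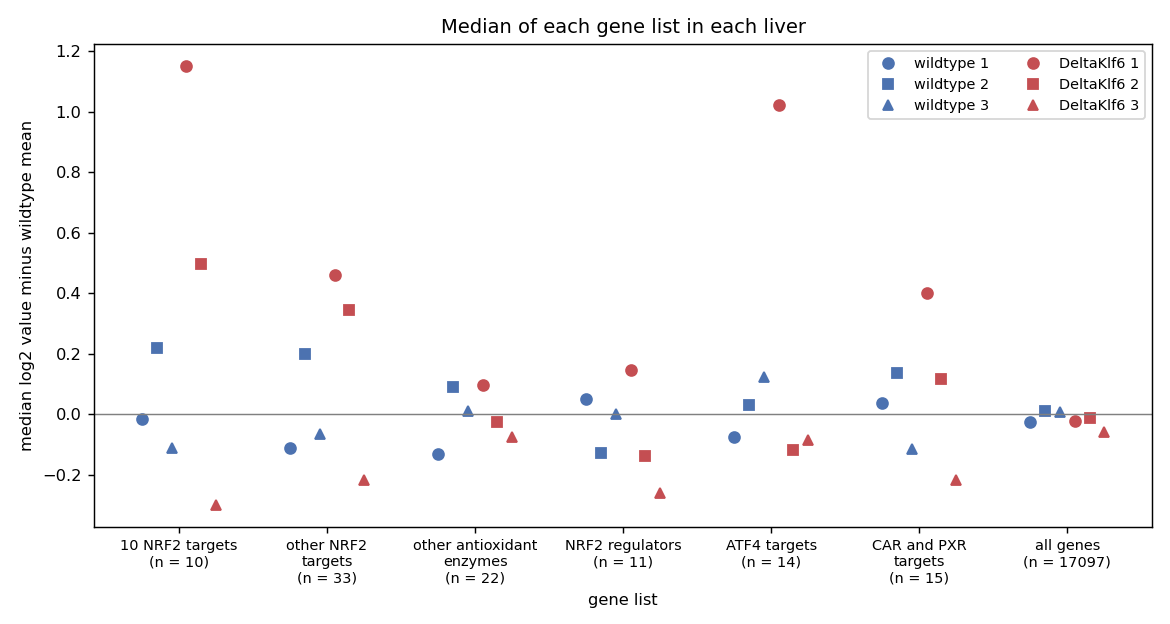
Median over each gene list of the log2 value minus the gene's wildtype mean (vertical axis) in each of the 6 arrays, for 6 lists and for all 17097 genes (horizontal axis). The 10 NRF2 targets are at 1.15, 0.50 and -0.30 in the libraries labelled DeltaKlf6 1, 2 and 3; the other antioxidant enzymes stay between -0.13 and 0.10 in all 6 arrays.

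Candidates for a similar pattern were 8540 other genes with a mean at or above that of the median gene, placeholder symbols included. Without those symbols, the genes nearest in pattern to the mean of the 10 targets over 6 arrays were Fmo5, Ssb, Eef2, Trnt1 and Ddx56. Their Pearson r with that mean was 0.998 (Fmo5), 0.997 (Ssb), 0.993 (Eef2), 0.991 (Trnt1) and 0.991 (Ddx56); with 6 arrays that share the same library differences, 84 genes exceeded 0.95. Fmo5, a flavin monooxygenase of liver, was at 9.99, 10.14 and 9.64 in wildtype and at 11.50, 10.76 and 9.36 in DeltaKlf6, the same order as the mean of the 10.

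As list means, markers of liver cell types stood nearer to wildtype than the targets in the library labelled DeltaKlf6 1. Measured as the mean log2 difference from wildtype, the 8 marker lists stood there between -0.13 and 0.37, and the 10 targets at 1.19. In such a mean, moves in opposite directions cancel. The sinusoidal endothelial markers had a mean of -0.05 in DeltaKlf6 1, with single markers from -0.95 (Kdr) to 1.59 (Lyve1). In the library labelled DeltaKlf6 2, this log2 difference was 0.56 for Kupffer cell and 0.47 for stellate markers, beside 0.63 for the 10 targets. By group mean, 6 of 10 hepatocyte markers, 9 of 14 Kupffer cell markers, 3 of 10 sinusoidal endothelial, 4 of 8 stellate cell, 4 of 5 cholangiocyte, 2 of 7 neutrophil and monocyte, 4 of 9 lymphocyte and 3 of 3 erythroid markers were higher. In the library labelled DeltaKlf6 3, the mean log2 difference from wildtype was -0.59 for endothelial and -0.53 for stellate markers, beside -0.52 for the 10 targets. Their part in the values of the targets was not tested.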

How the data were processed

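Total RNA of 6 livers was labelled with a 3' IVT Express kit and measured on 1-channel Affymetrix arrays, per the labels' protocols. The deposited log2 values come from RMA, run by the authors; the submitters' processing notes name Affymetrix Expression Console 1.2.1. The log base was inferred from the range of the values, whose highest is 13.9. Neither the genome build nor the authors' probe annotation is given in the sources used here. Of 45141 probe sets 28898 had 1 gene in the platform annotation, 551 several and 15692 none here.

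DeltaKlf6 was compared with wildtype in limma 3.58.1 (R 4.3.3; lmFit and eBayes, statmod 1.5.0 for robust variances), two-sided, with Benjamini-Hochberg adjustment over all genes. Standard errors and 95% intervals are those of this fit. The fit was tested on simulated data with independent values and the same spread in both groups. In these data the SD was larger in DeltaKlf6 for 68.1% of genes, so the simulation does not show how the fit behaves here. The members and lists were chosen with earlier results of these data known, so lists are described by counts and medians with no test. The genes named were Klf6, the 10 targets, Nfe2l2, Bach1 and the small MAF genes, the 4 genes of smallest p in each pathway list and the 5 nearest patterns; others are named after their values were seen, among them Alb, Ttr, and in the lists Cat, Sod1, Sod2, Gpx1 and Gpx4. The number of arrays limits the precision. Alternatives covered the choice of probe sets, dim genes, normalization, variance model, weights per array, a block for the replicate number and leaving out each array. With 1 array per animal, each p-value sets a group difference against the spread between arrays. That spread holds differences between animals and between RNA preparations alike, which cannot be told apart here.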

Additional observations from a re-analysis of the deposited data

How the results depend on the processing

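In all 16 alternatives with 1 value per gene, 0 genes passed an adjusted p of 0.05 by limma, with 331 (dim genes left out, 8549 tested) to 1666 (Gapdh covariate) at an unadjusted p under 0.05, beside 631. The median difference of the 10 targets ranged from 0.09 to 0.95 and was lowest with the Gapdh covariate, chosen after seeing the data, and highest without the library labelled DeltaKlf6 3. Leaving out 1 array gave 0.10 to 0.95 for this median and 0.04 to 0.36 for that of the other NRF2 targets. Of 173 recomputed values of single targets 159 kept their sign, none passed the test (lowest limma adjusted p 0.412) and 14 changed sign. Part of the kept signs was fixed beforehand. The variance models, the replicate block and the omission of dim genes leave a target's estimate itself unchanged. A choice of probe sets does so too for a target with only 1. Leaving out 1 array gave -0.54 to 1.41 for Gclc, -0.46 to 1.12 for Gclm, -0.0271 to 0.72 for Txnrd1, -0.0333 to 1.17 for Osgin1 and -0.28 to 0.00088 for Slc7a11. The sign turned for Gclc and Gclm without DeltaKlf6 1 (-0.47 and -0.18), DeltaKlf6 2 (-0.54 and -0.46) or wildtype 3 (-0.21 and -0.02), for Txnrd1 without DeltaKlf6 1, for Osgin1 without wildtype 3 and for Slc7a11 without DeltaKlf6 2. It also turned with the Gapdh covariate for Gclc (-0.79), Gclm (-0.54) and Osgin1 (-0.0101), and for Slc7a11 with the mean of its probe sets (0.0448) or its other probe set (0.19); the cause was not tested. Array weights, which gave the library labelled DeltaKlf6 3 the lowest weight (0.378), raised the median of the 10 to 0.76. The titles number the replicates alike in both groups. Same-numbered arrays deviated together only in part (r = -0.00, 0.26 and 0.08 across genes), so the numbers were not taken as pairs. The replicate block cannot change a group difference in this balanced design, so the median was again 0.46. With it 703 genes had an unadjusted limma p under 0.05. The SE of Gclc was 0.57 beside 0.96 and that of Osgin1 0.41 beside 0.72. The SE was also smaller for Gclm (0.49 beside 0.73), Nqo1 (0.33 beside 0.42), Hmox1 (0.40 beside 0.48), Ephx1 (0.29 beside 0.33) and Txnrd1 (0.34 beside 0.36). It was larger with the block for Srxn1 (0.48 beside 0.46), Cbr3 (0.40 beside 0.37) and Slc7a11 (0.25 beside 0.24). Slc7a11 read under the array medians, and no detection calls were at hand.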
